A study of Mus musculus with 10 samples.

Results

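The genes of LIF, gp130 and STAT3 signalling were followed in whole mouse retina: Lif and Cntf (ligands), Lifr, Cntfr, Osmr and Il6st (receptor chains), Stat3 (transcription factor), Socs3 (inhibitor), and Cebpd and Cebpb (downstream transcription factors). They were taken by symbol from a deposited array table in which 30063 genes have a transcript cluster annotated to 1 symbol, and 9 of the 10 have such a cluster. Cntf shares its cluster's annotation with Zfp91, so no value is given for it. All 9 measured genes passed the filter on low values, which kept 23255 genes.

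The series holds 10 Affymetrix whole-transcript arrays of retina from C57BL/6JJmsSlc mice, 2 for each of 5 groups. In 3 groups, all at postnatal day 17, the mice had oxygen-induced retinopathy (OIR): pups were kept in 75% oxygen for 5 days starting at day 7 and then returned to air. At the end of the oxygen period 1 of these groups was injected into the vitreous with the inhibitor ISOX DUAL, known as a bromodomain inhibitor, and 1 with phosphate-buffered saline (PBS), while the last, called uninjected OIR here, has no injection in its labels. The remaining groups were untreated retina at day 17 and untreated retina at day 7. All animals shared 1 strain, and the labels give no genetic change, no dose and nothing on pooling or on how many animals stand behind a pair of arrays. The p-values therefore reflect only array-to-array spread, possibly of technical origin.

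Cytokines of the interleukin-6 family, such as LIF, CNTF and oncostatin M, signal through receptor complexes that contain gp130, the product of Il6st. Janus kinases bound to these receptors phosphorylate STAT3, which enters the nucleus and switches on genes that include its own inhibitor Socs3. In the injured mouse retina LIF is known to be made by a subset of Müller glia, and the pathway is known for its role in photoreceptor survival and for inducing Gfap and Edn2.

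Values are the deposited log2 signals, and each difference between groups is a difference of mean log2 signals. They were tested with limma over all 10 arrays, with Benjamini-Hochberg adjustment across those 23255 genes and a cut-off of 0.05. "Rose" and "fell" are used for genes past that threshold, and ± gives the standard error (SE) of the fit. Background was alike across arrays: the median of the negative control probes was 5.83 to 6.11, and 8.00% to 9.97% of clusters lay above those probes' 95th percentile. The rod marker list (4 of 5 genes with a value) averaged 11.25 to 11.50 on the day 17 arrays. Lens markers were uneven, with a mean of 6.21 and 7.99 over 5 genes on the ISOX DUAL arrays, 5.83 and 6.23 on the PBS arrays and 5.52 and 5.73 on the uninjected OIR arrays.

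Uninjected OIR retina had more Stat3, Osmr and Cebpd transcript than untreated retina of the same day, while the ligand Lif, the receptor genes Lifr and Cntfr, the inhibitor Socs3 and Cebpb did not pass the threshold. Of the 9 genes 3 rose and none fell, against 0.456% of all genes rising and 0.0387% falling. Stat3 rose 2.95-fold, Osmr 3.40-fold and Cebpd 3.52-fold. In whole tissue a change in the number of cells of a type and a change in RNA per cell cannot be told apart. On 7 of the 9 genes both uninjected OIR arrays lay above both untreated arrays, against 9.44% of all genes. The median difference was 0.38 log2 over the 9 genes and -0.04 over all genes. The genes were chosen with earlier results of these data known, so such shares, here and below, only describe them.

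**Figure D1:**
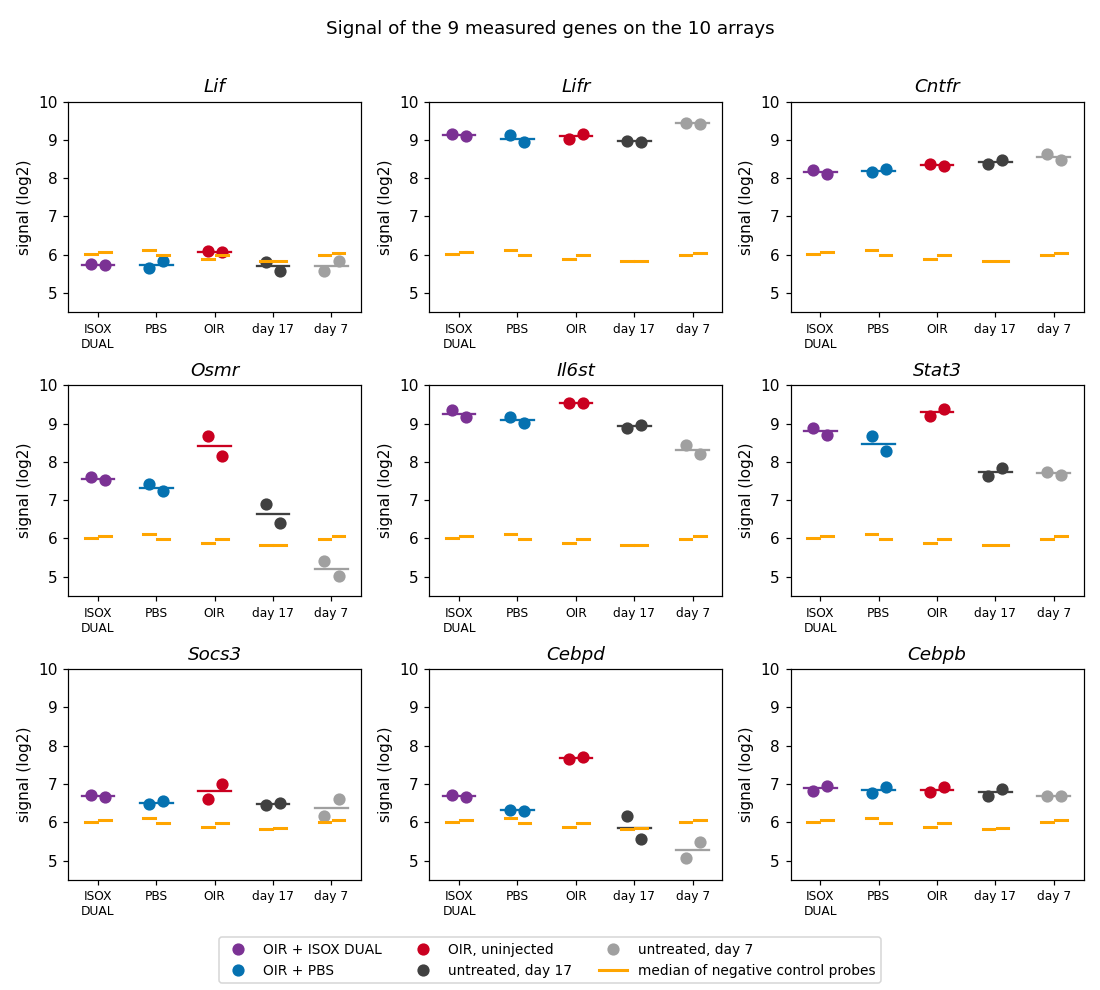
Log2 signal of the 9 measured genes (1 panel each) on every array, with groups on the horizontal axis in the order ISOX DUAL, PBS, uninjected OIR, untreated day 17 and untreated day 7. Points are arrays, horizontal lines are group means (n = 2), and orange bars give each array's median of negative control probes. Osmr, Stat3 and Cebpd were highest on both uninjected OIR arrays, and Lif lay near the negative control median on all arrays.

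Of the ligands, Lif, which encodes leukaemia inhibitory factor, was measured near background. Its signal was 6.09 and 6.06 on the uninjected OIR arrays, against 5.81 and 5.58 on the untreated day 17 arrays. Both uninjected OIR arrays lay just above their negative control medians (5.88 and 5.98), and the 8 arrays of the other groups lay below theirs. The difference of 0.38 ± 0.13 log2 did not pass (adjusted p = 0.577), and no fold is given because both untreated arrays were below background.

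Among the receptor genes Osmr, which encodes the oncostatin M receptor chain that pairs with gp130, stood apart. Its signal was 8.67 and 8.15 on the uninjected OIR arrays, against 6.89 and 6.40 on the untreated day 17 arrays. The groups did not overlap, and Osmr rose by 1.77 ± 0.23 log2 (adjusted p = 0.0275). Il6st, encoding the shared chain gp130, was at 9.55 and 9.53 on the uninjected OIR arrays and at 8.89 and 8.98 on the untreated ones. These arrays did not overlap either, but the difference of 0.60 ± 0.12 log2 did not pass (adjusted p = 0.103).

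Lifr and Cntfr, the receptor chains for LIF and CNTF, differed less. Lifr had 9.03 and 9.16 on the uninjected OIR arrays and 8.98 and 8.94 on the untreated ones, a difference of 0.14 log2 (95% interval -0.09 to 0.36). Cntfr had 8.36 and 8.32 on the uninjected OIR arrays and 8.38 and 8.46 on the untreated ones, a difference of -0.08 log2 (-0.30 to 0.14). Lifr was higher and Cntfr lower in uninjected OIR without overlap, and neither passed (adjusted p = 0.999 for both). Of all genes 9.44% were higher without overlap, and the share lower without overlap is not given.

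Stat3, the transcription factor that relays the signal to the nucleus, ranked 16th by p-value among the 23255 genes. Its signal was 9.21 and 9.38 on the uninjected OIR arrays, against 7.63 and 7.83 on the untreated day 17 arrays. It rose by 1.56 ± 0.15 log2 (adjusted p = 0.0129). Socs3, the feedback inhibitor that STAT3 induces, was at 6.62 and 7.01 on the uninjected OIR arrays and at 6.44 and 6.50 on the untreated ones. The arrays did not overlap, and the difference did not pass (0.34 ± 0.17 log2, 95% interval -0.05 to 0.74, adjusted p = 0.931).

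Cebpd, encoding the C/EBP-delta transcription factor of acute-phase responses, had 7.64 and 7.71 on the uninjected OIR arrays, against 6.17 and 5.56 on the untreated day 17 arrays. It rose by 1.82 ± 0.20 log2 (adjusted p = 0.0178). The second untreated array lay below its negative control median (5.84), so the fold of 3.52 rests in part on a value below background. Its relative Cebpb had 6.78 and 6.93 on the uninjected OIR arrays and 6.68 and 6.87 on the untreated ones. These arrays overlapped, and the difference was 0.08 log2 (-0.18 to 0.33).

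**Figure D2:**
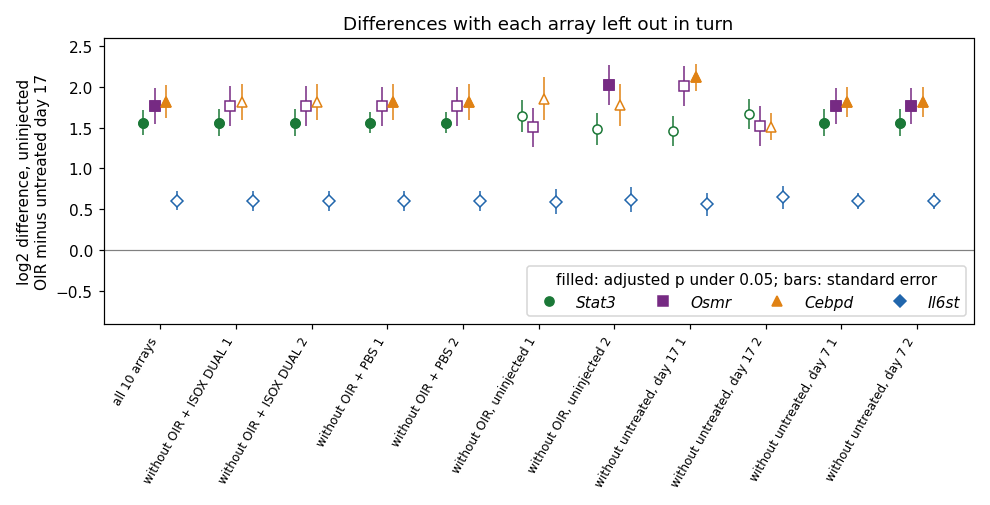
Log2 difference of Stat3, Osmr, Cebpd and Il6st (uninjected OIR minus untreated day 17) with all 10 arrays and with each array left out in turn. Bars are standard errors, and filled symbols passed an adjusted p of 0.05. All differences stayed above 0.50 log2, while filled symbols were lost in several settings.

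The calls rest on few arrays. Without the first uninjected OIR array or the second untreated day 17 array none of the 9 genes passed. Only Osmr passed without the second uninjected OIR array and only Cebpd without the first untreated day 17 array. Without either ISOX DUAL array only Stat3 passed, and without either PBS array only Stat3 and Cebpd, although these arrays enter only through the shared estimate of the spread. The sizes moved less: 1.46 to 1.67 log2 for Stat3, 1.51 to 2.02 for Osmr and 1.51 to 2.12 for Cebpd over the 10 settings that leave out 1 array. When the fit was limited to these 4 arrays none passed, and only Cebpd passed with array weights.

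Promoter windows of 300 bases (250 before to 50 after the gene's start, RefSeq, GRCm38.p6) were matched for 9 of the 10 genes. Those of Osmr, Il6st, Stat3 and Socs3, which had the same order of group means, are shown. Cebpd, which also had that order, is the gene without a window, so it was not searched. Capitals mark matches to GC boxes (GGGCGG on either strand) and, in Socs3, to the STAT core TTCNNNGAA. The windows are Osmr at chr15:6874264-6874563 (minus strand), Il6st at chr13:112463820-112464119 (plus), Stat3 at chr11:100939491-100939790 (minus) and Socs3 at chr11:117969317-117969616 (minus).
Osmr: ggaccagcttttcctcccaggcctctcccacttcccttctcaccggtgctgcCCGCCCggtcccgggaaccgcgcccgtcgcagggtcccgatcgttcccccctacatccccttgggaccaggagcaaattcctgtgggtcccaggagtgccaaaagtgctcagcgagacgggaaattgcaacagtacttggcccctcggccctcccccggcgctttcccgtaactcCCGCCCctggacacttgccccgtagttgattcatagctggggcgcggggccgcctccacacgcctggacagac
Il6st: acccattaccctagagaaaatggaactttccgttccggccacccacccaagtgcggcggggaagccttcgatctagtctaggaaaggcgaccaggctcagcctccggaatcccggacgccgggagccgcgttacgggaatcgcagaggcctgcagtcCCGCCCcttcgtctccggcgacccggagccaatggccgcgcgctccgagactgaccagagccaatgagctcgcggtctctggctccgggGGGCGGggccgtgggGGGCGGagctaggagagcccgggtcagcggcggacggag
Stat3: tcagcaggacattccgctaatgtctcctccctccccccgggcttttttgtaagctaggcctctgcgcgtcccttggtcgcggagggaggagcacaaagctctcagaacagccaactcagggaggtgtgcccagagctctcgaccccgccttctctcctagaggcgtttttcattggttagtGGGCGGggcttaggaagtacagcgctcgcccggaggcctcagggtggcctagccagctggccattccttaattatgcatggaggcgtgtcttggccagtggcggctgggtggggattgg
Socs3: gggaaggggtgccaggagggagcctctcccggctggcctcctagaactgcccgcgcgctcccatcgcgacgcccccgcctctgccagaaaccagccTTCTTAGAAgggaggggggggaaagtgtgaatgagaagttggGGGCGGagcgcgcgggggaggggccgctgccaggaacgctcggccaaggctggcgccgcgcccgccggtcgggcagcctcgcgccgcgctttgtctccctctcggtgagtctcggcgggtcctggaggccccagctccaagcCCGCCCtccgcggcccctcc

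Each motif was searched on both strands: the STAT core, the C/EBP core TTGCNNAA, the hypoxia element core ACGTG and the GC box. No matches overlapped in the 4 windows shown. The STAT core was found in 1 of the 9 genes with a window, Socs3, as TTCTTAGAA beginning at position -154 from the gene's start, and in 8.30% of all 32851 windows. The windows of Osmr, Il6st and Stat3 hold no STAT, C/EBP or hypoxia core in these letters, which are found in 8.30%, 10.8% and 19.6% of all windows. GC boxes numbered 2 in Osmr, 3 in Il6st, 1 in Stat3 and 2 in Socs3, and 35.7% of all windows hold at least 1. The bases G and C make up 60.7% (Stat3) to 73.3% (Socs3) of these 4 windows, against a median of 52.7% over all windows. The part of this base composition in the GC box counts was not tested. Of the other genes Cntfr, which has 6 windows, holds the hypoxia core in 3 of them. These windows overlap, and the match is the same site in each. Lif has none of these motifs in its window, and Cebpb has 5 GC boxes.

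Of 9 other ligand genes of the family 7 were tested and 0 passed. Their median difference was -0.10 log2, and the smallest p belonged to Ebi3 (-0.32 ± 0.15 log2, adjusted p = 0.866). Osm, encoding oncostatin M, the ligand of the Osmr chain, was at 5.59 and 5.68 on the uninjected OIR arrays and at 5.56 and 5.75 on the untreated ones, below the negative control medians on all 4. Il6, the gene of the founding cytokine, lay at 2.67 and 2.50 in uninjected OIR and 2.56 and 2.67 in untreated retina, too low to be tested, and Il11 was also below background on these arrays. Osm and Il6 were singled out after their values were seen.

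No other receptor, kinase, STAT, brake or C/EBP gene of the lists passed in uninjected OIR. The kinase genes Jak1 (0.07 ± 0.10 log2), Jak2 (0.11 ± 0.19) and Tyk2 (0.14 ± 0.14) had small positive differences. Among 4 tested STAT genes other than Stat3 the largest difference was 0.28 ± 0.10 log2, for Stat6 (adjusted p = 0.623). Of 15 genes that dampen the pathway (other SOCS genes, PIAS genes and phosphatases) 0 passed, with a median of 0.03 log2 and Ptpn1, encoding a tyrosine phosphatase, at 0.45 ± 0.23 (adjusted p = 0.949). Of the other C/EBP genes Cebpg was at 0.21 ± 0.14 and the stress factor gene Ddit3 at 0.26 ± 0.19. Il6ra, the interleukin-6 receptor gene, was below background on both uninjected OIR arrays (difference -0.01 ± 0.10).

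Several known STAT3 targets rose. Of 28 listed genes 27 were tested, 8 rose and 0 fell in uninjected OIR, against 0.456% of all genes rising, and the list's median difference was 0.38 log2 against -0.04 over all genes. The list was drawn up with earlier results of these data known, and some of its genes also respond to hypoxia, so it is a description of the list. Gfap, the intermediate filament gene of reactive glia, had 8.49 and 8.65 on the uninjected OIR arrays, against 6.15 and 6.20 on the untreated ones. Bcl3, encoding a partner of NF-kappa-B, had 7.10 and 6.97 in uninjected OIR and 6.00 and 6.17 in untreated retina, and it rose 1.93-fold (0.95 ± 0.13 log2, adjusted p = 0.0322). Edn2, encoding endothelin 2, had 7.61 and 7.43 on the uninjected OIR arrays, against 6.42 and 6.66 on the untreated ones.

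Vegfa, the vascular growth factor gene, had 9.94 and 9.91 in uninjected OIR, against 8.81 and 8.88 in untreated retina (1.08 ± 0.12 log2, adjusted p = 0.0176). Serpina3n, A2m, Ccn1 and Fgf2 also rose, with Serpina3n 8.21-fold higher. Fos, an immediate-early gene, had 9.00 and 8.31 in uninjected OIR and 7.35 and 7.66 in untreated retina, without overlap, and did not pass (1.15 ± 0.23 log2, adjusted p = 0.125). Over all 62 tested genes of the pathway lists the count, 8 with all arrays, was 0 without either untreated day 17 array, 1 without the first and 4 without the second uninjected OIR array, 3 without either ISOX DUAL array and 6 without either PBS array.

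**Figure D3:**
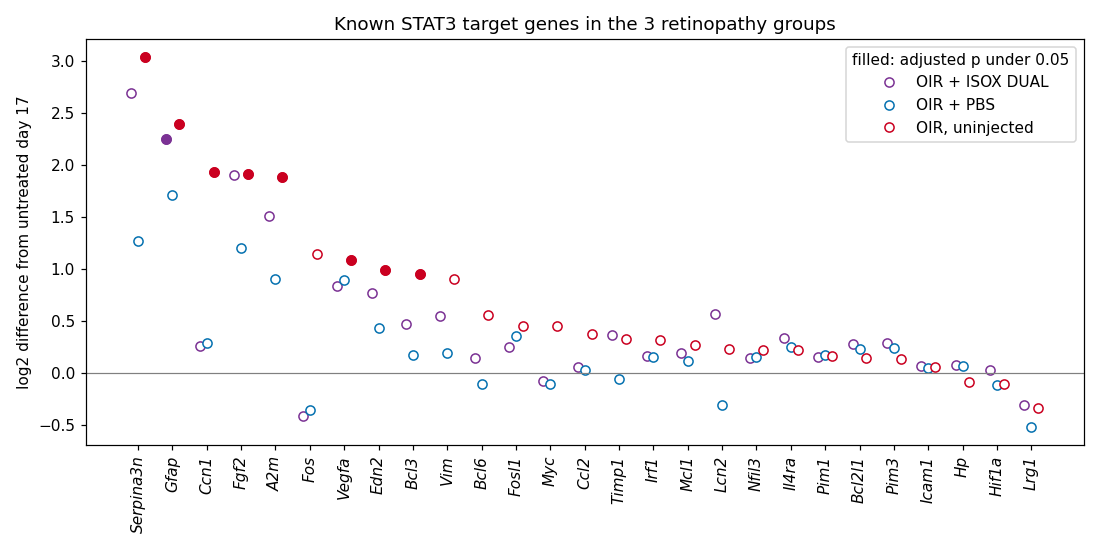
Log2 difference from untreated day 17 retina for the 27 tested genes of the STAT3 target list, in ISOX DUAL, PBS and uninjected OIR retina (n = 2 arrays per group). Filled points passed an adjusted p of 0.05. The 8 filled points of uninjected OIR lie between 0.95 and 3.04, and of the injected groups only Gfap with ISOX DUAL is filled. The 3 comparisons share the untreated arrays.

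Markers of other cell types were read on the same arrays. Of the Müller glia markers with a value, 0 of 5 passed, with a median of -0.44 log2 and a list mean of 8.49 and 8.24 in uninjected OIR and 8.46 and 8.59 in untreated retina. Its members had differences of both signs: Kcnj10, a potassium channel gene, differed by -0.75 ± 0.12 log2 (adjusted p = 0.0560) and Aqp4, a water channel gene, by -0.65 ± 0.12 (adjusted p = 0.0891), while Vim, an intermediate filament gene, differed by 0.90 ± 0.34 (adjusted p = 0.680). None of these 3 overlapped between the groups. Rlbp1 differed by -0.44 ± 0.22 log2 with overlap, and Slc1a3 by 0.13 ± 0.10 without overlap. Of all genes 9.44% were higher without overlap, and the share lower without overlap is not given. Of the 2 astrocyte markers tested, Gfap rose by 2.39 ± 0.18 log2. Pax2, below background in uninjected OIR, differed by -0.04 ± 0.09. Of 6 microglia and macrophage markers 0 passed, with a list mean of 6.32 and 6.15 in uninjected OIR and 6.07 and 6.13 in untreated retina. Their differences were positive for 4 and negative for 2. The largest was that of Cd68, higher without overlap (0.67 ± 0.21 log2, adjusted p = 0.504). Aif1 and P2ry12 were below background throughout. The 5 endothelial markers averaged 7.64 and 7.60 in uninjected OIR and 7.46 and 7.35 in untreated retina, with 0 past the threshold. Cdh5 (0.81 ± 0.22 log2) and Pecam1 (0.54 ± 0.15), both junction genes, were higher without overlap and Tek, a receptor gene, was lower without overlap (-0.40 ± 0.12). The 4 pigment epithelium markers averaged 6.75 and 5.84 in uninjected OIR and 7.30 and 6.55 in untreated retina, with a median difference of -0.72 log2 and 0 past the threshold. Of the 4 listed blood markers 1 was tested, Alas2, a gene of haem synthesis in red cell precursors. It had 6.38 and 6.86 in uninjected OIR and 5.91 and 6.04 in untreated retina, without overlap (0.65 ± 0.18 log2, adjusted p = 0.397). The leukocyte gene Ptprc was below background on every array. The part of cell composition in the rises of Stat3, Osmr and Cebpd was not tested.

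When the 3 OIR groups were averaged and set against untreated day 17 retina, Stat3 rose (1.13 ± 0.13 log2, 2.19-fold, adjusted p = 0.0332), 1 of 16 genes that did so (0.0688% of all genes), while 4 genes fell (0.0172%) and 0.086% passed in either direction. Its signal was 8.89 and 8.71 with ISOX DUAL, 8.68 and 8.28 with PBS, 9.21 and 9.38 in uninjected OIR, and 7.63 and 7.83 in untreated retina, so all 6 OIR arrays lay above both untreated arrays. Osmr (1.12 ± 0.18, adjusted p = 0.0837) and Cebpd (1.03 ± 0.16, adjusted p = 0.0750) had no overlap between OIR and untreated arrays either, and did not pass. Over the 9 genes 4 had every OIR array above both untreated arrays and 1, Cntfr, had every OIR array below them, against 4.85% and 9.63% of all genes. Cntfr had 8.21 and 8.12 with ISOX DUAL, 8.16 and 8.23 with PBS, and a difference of -0.19 ± 0.08 log2 (adjusted p = 0.471). Il6st differed by 0.36 ± 0.09 log2 (adjusted p = 0.255), and Socs3 (0.20 ± 0.14), Lif (0.16 ± 0.10), Lifr (0.13 ± 0.08) and Cebpb (0.08 ± 0.09) did not pass. When each array was left out in turn, Stat3 passed only without the second PBS array (adjusted p = 0.0315). In the other settings its adjusted p reached up to 0.387, the value without the first untreated day 17 array, with differences of 1.03 to 1.23 log2. It also missed the threshold with quantile normalization, with array weights and with only the compared groups in the fit.

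PBS-injected retina had lower values than uninjected OIR retina for most of these genes, but no gene of the 9, and none of the 23255, passed (limma, 0% called, 997 genes or 4.29% at an unadjusted p under 0.05). Of the 9 genes 5 had an unadjusted p under 0.05. The arrays did not overlap for 7 of the 9, all lower with PBS, against 15.3% of all genes. Cebpd had 6.33 and 6.30 with PBS, against 7.64 and 7.71 in uninjected OIR (-1.37 ± 0.20 log2, adjusted p = 0.186). Osmr had 7.42 and 7.24 with PBS, against 8.67 and 8.15 in uninjected OIR (-1.08 ± 0.23 log2, adjusted p = 0.427). For both genes the PBS arrays were the lower ones, with a gap between the groups. Stat3 had 8.68 and 8.28 with PBS, against 9.21 and 9.38 in uninjected OIR (-0.81 ± 0.15 log2, adjusted p = 0.330). Il6st had 9.17 and 9.01 with PBS, against 9.55 and 9.53 in uninjected OIR (-0.45 ± 0.12 log2, adjusted p = 0.707). Lif (-0.34 ± 0.13 log2), Socs3 (-0.30 ± 0.17) and Cntfr (-0.14 ± 0.10) were lower with PBS without overlap. Lifr and Cebpb overlapped between the groups, at -0.07 ± 0.10 and -0.01 ± 0.11 log2. This comparison shares its uninjected OIR arrays with the comparison to untreated retina.

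Retina injected with ISOX DUAL was also set against uninjected OIR, sharing those same arrays. None of the 9 genes passed, and 1 of all genes did (0.0043%). Cebpd had 6.70 and 6.67 with ISOX DUAL, against 7.64 and 7.71 in uninjected OIR (-0.99 ± 0.20 log2, adjusted p = 0.413). The differences were -0.84 ± 0.23 log2 for Osmr (adjusted p = 0.777) and -0.49 ± 0.15 for Stat3 (adjusted p = 0.952), and neither gene overlapped between the groups. Lif (-0.34 ± 0.13), Il6st (-0.28 ± 0.12) and Cntfr (-0.17 ± 0.10) did not overlap either. Socs3 (-0.13 ± 0.17), Lifr (0.04 ± 0.10) and Cebpb (0.03 ± 0.11) overlapped. Both ISOX DUAL arrays lay below both uninjected OIR arrays for 6 of the 9 genes, against 15.4% of all genes. The 4 ganglion cell markers, a cell type of the inner retina, averaged 7.50 and 6.90 with ISOX DUAL, 7.27 and 8.03 with PBS, and 8.42 and 8.02 in uninjected OIR. The part of this and of the lens signal in these differences was not tested.

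The inhibitor was compared with its injected counterpart, ISOX DUAL against PBS. None of the 9 genes passed, and none of all genes did (0%, with 237 genes or 1.02% at an unadjusted p under 0.05 and 0 of the 9 genes among them). Stat3 had 8.89 and 8.71 with ISOX DUAL, against 8.68 and 8.28 with PBS. Both ISOX DUAL arrays were higher, by a mean of 0.32 log2 (95% interval -0.04 to 0.68). Without the second PBS array this difference was 0.12, and without the first it was 0.53. Cebpd had 6.70 and 6.67 with ISOX DUAL, against 6.33 and 6.30 with PBS, a difference of 0.37 log2 (-0.09 to 0.84). The interval was -0.29 to 0.76 for Osmr, -0.09 to 0.44 for Il6st and -0.22 to 0.57 for Socs3. Neither a rise nor a fall within these bounds could be told from no change. For Lifr (-0.13 to 0.33), Cntfr (-0.25 to 0.19), Lif (-0.29 to 0.30) and Cebpb (-0.22 to 0.29) the estimates were closer to 0, with intervals that also include both rises and falls. The arrays did not overlap for 5 of the 9 genes, all higher with ISOX DUAL, against 16.6% of all genes. Of the 27 STAT3 targets 0 passed, with a median of 0.07 log2 against 0.01 over all genes. At an unadjusted p under 0.05 there were 5 of the 27, against 1.02% of all genes, and 11 of the 27 were higher with ISOX DUAL without overlap, against 16.6%. The target list was drawn up with earlier results of these data known, so these shares only describe the list. Serpina3n, with 8.33 and 9.25 under ISOX DUAL and 7.38 and 7.36 under PBS, differed by 1.42 log2 and did not pass. Lens markers averaged 6.21 and 7.99 with ISOX DUAL and 5.83 and 6.23 with PBS, and their part in these values was not tested.

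Each injected group was also set against untreated day 17 retina. With ISOX DUAL none of the 9 genes passed (4 of all genes, 0.0172%, with 0.0086% higher and as many lower), and Stat3 differed by 1.07 ± 0.15 log2 (adjusted p = 0.144), Osmr by 0.92 ± 0.23 and Cebpd by 0.82 ± 0.20 (both adjusted p = 0.303). The other differences with ISOX DUAL were 0.33 ± 0.12 for Il6st, 0.21 ± 0.17 for Socs3, 0.17 ± 0.10 for Lifr, 0.11 ± 0.11 for Cebpb, 0.04 ± 0.13 for Lif and -0.25 ± 0.10 for Cntfr. With PBS none of the 9 and none of all genes passed (0%, with 2126 genes or 9.14% at an unadjusted p under 0.05, 3 of the 9 among them). Stat3 differed by 0.75 ± 0.15 log2 with PBS (adjusted p = 0.477), Osmr by 0.69 ± 0.23 (adjusted p = 0.541) and Cebpd by 0.45 ± 0.20 (adjusted p = 0.544). The other differences with PBS were 0.16 ± 0.12 for Il6st, 0.07 ± 0.10 for Lifr, 0.07 ± 0.11 for Cebpb, 0.04 ± 0.17 for Socs3, 0.04 ± 0.13 for Lif and -0.22 ± 0.10 for Cntfr. These comparisons share the untreated arrays.

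**Figure D4:**
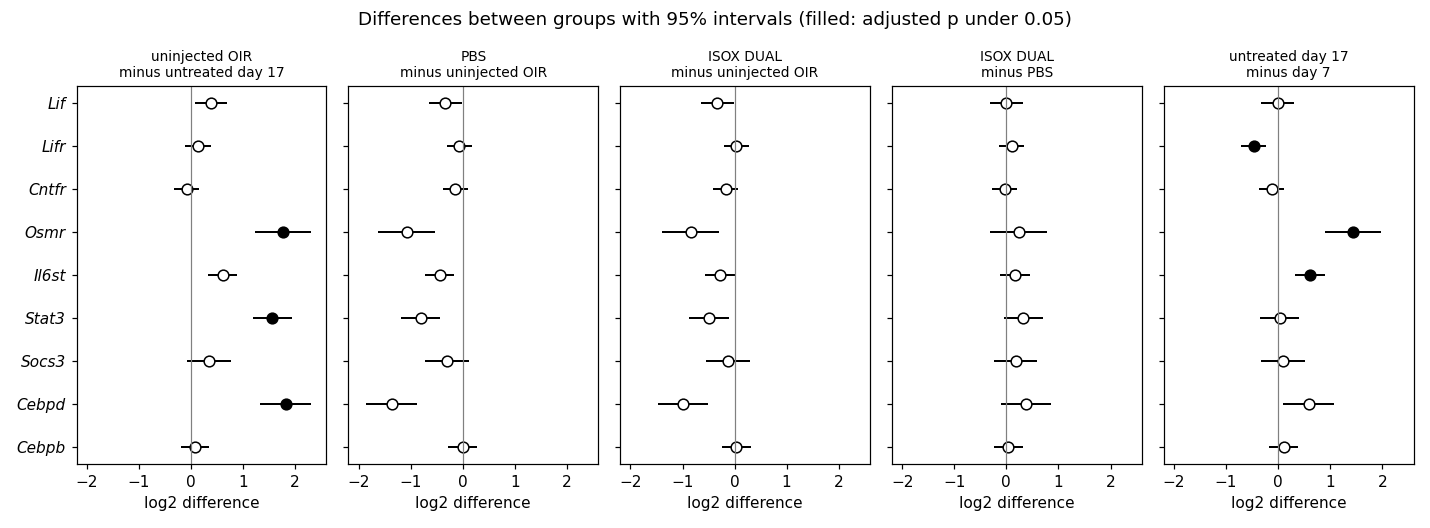
Log2 differences of the 9 genes between groups in 5 comparisons, each named above its panel as the first group minus the second. Points are estimates over 2 arrays per group, lines are 95% intervals, and filled points passed an adjusted p of 0.05. Filled points are Osmr, Stat3 and Cebpd for uninjected OIR minus untreated day 17, and Lifr, Osmr and Il6st for untreated day 17 minus day 7.

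Between untreated day 17 and untreated day 7, 3 of the 4 receptor genes changed, while Cntfr and Stat3 did not pass. Of the 9 genes 2 rose and 1 fell, against 5.26% of all genes rising and 5.29% falling, or 10.6% in either direction. Osmr had 6.89 and 6.40 at day 17, against 5.40 and 5.01 at day 7, where both arrays were below background. It rose by 1.44 ± 0.23 log2 (adjusted p = 0.00691), and no fold is given. Il6st, the gp130 gene, had 8.89 and 8.98 at day 17 against 8.43 and 8.21 at day 7, and rose 1.53-fold (0.61 ± 0.12 log2, adjusted p = 0.0145). Lifr moved the other way, with 8.98 and 8.94 at day 17 against 9.44 and 9.42 at day 7 (-0.47 ± 0.10 log2, adjusted p = 0.0205). None of these 3 genes overlapped between the ages, and the share of all genes without overlap is not given for this comparison. Cntfr had 8.38 and 8.46 at day 17 against 8.62 and 8.46 at day 7, with overlap (-0.12 ± 0.10 log2, adjusted p = 0.542).

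Stat3 had 7.63 and 7.83 at day 17 against 7.73 and 7.66 at day 7, a difference of 0.03 log2 (95% interval -0.32 to 0.39). Cebpd had 6.17 and 5.56 at day 17 against 5.07 and 5.47 at day 7, without overlap (0.59 ± 0.20 log2, adjusted p = 0.121). The remaining differences were 0.09 ± 0.17 log2 for Socs3, 0.10 ± 0.11 for Cebpb and -0.01 ± 0.13 for Lif, and none passed. Of the other pathway genes Stat5b rose (0.73 log2, adjusted p = 0.00703) and Pias3, an inhibitor of STAT binding, fell by 0.59 log2 (adjusted p = 0.00749). Of the 27 tested STAT3 targets 2, Fos and Bcl6, rose and 1, Bcl2l1, fell. Over all 62 tested genes of the pathway lists 3 rose and 2 fell, against 5.26% of all genes rising and 5.29% falling. These named genes are therefore a description and not a trait of the pathway. The rod markers averaged 11.31 and 11.50 at day 17 and 10.10 and 9.45 at day 7, and 3 of 4 rose, while of 5 Müller glia markers 2 rose and 1 fell. Their part in the receptor changes was not tested. Osmr passed whichever array was left out, Il6st was lost without the second day 17 array and without the second day 7 array, and Lifr was lost without any 1 of the 4 arrays compared or without either ISOX DUAL array. With only these 4 arrays in the fit none passed.

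Over the 5 groups Osmr, Il6st and Cebpd had 1 order of means: uninjected OIR, ISOX DUAL, PBS, untreated day 17 and untreated day 7, with no overlap between neighbours. The share of all genes with this order was not counted, and at day 7 both arrays of Osmr and of Cebpd lay below background. Stat3 had the same order, but its day 17 and day 7 untreated arrays overlapped. Socs3 had it too, at means of 6.81, 6.69, 6.51, 6.47 and 6.38, and only its ISOX DUAL and PBS arrays did not overlap as neighbours. Cebpb varied least, within a range of 0.277 log2 over the 10 arrays, and Osmr most, within 3.66. Lif stood out only in uninjected OIR, with overlap among the other groups, and Lifr was highest at day 7, where its arrays lay above all others.

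The genes most like each of 5 genes over the 10 arrays were found by Pearson correlation, which here follows the group differences and is given as a description. Left out of the search were the genes followed here and those with predicted, clone, small RNA or mitochondrial names. Osmr was closest to Slc14a1 (0.987), Il1r1 (0.985) and Mgp (0.984), and Stat3 to Lad1 (0.983), Myo10 (0.975) and Rfx2 (0.974). Cebpd was closest to Eva1c (0.977), Cd44 (0.963) and Hsd17b2 (0.962). Socs3 was closest to Plau (0.972), Upp1 (0.953) and Slc22a13b (0.936), and Lif to Nfatc1 (0.918), Egr2 (0.892) and Stap2 (0.891). The 10 arrays share 5 groups, so these values rest on fewer than 10 independent conditions.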

How the data were processed

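Total RNA of 10 mouse retina samples was hybridised to Affymetrix whole-transcript arrays after Trizol extraction, per the labels' protocols. The authors deposited 1 table of log2 values, whose software, normalization and build are not stated in the labels. It has 72688 rows, of which 6732 are controls, and values of 1.03 to 13.67. Of 65956 transcript clusters 30604 carry 1 gene symbol, 2146 several and 33206 none. Symbols were updated by Entrez ID (22818) or by symbol or synonym (7784), and 2 were kept as given. Where a gene had several clusters (429 genes), the one with the highest mean was used.

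From these values, genes above their array's 30th percentile on at least 2 arrays were tested in R 4.3.3 with limma 3.58.1 (a mean for each of 5 groups, lmFit, eBayes, no block), adjusted by Benjamini-Hochberg over 23255 genes at 0.05. The fit had 5 residual and 2.76 prior degrees of freedom, and the median SE was 0.134 log2. The small number of arrays limits the precision. Folds were withheld where both arrays of the lower group fell under the median of 5222 negative control probes. The procedure was tested on simulated data with independent noise on each array. That setting lacks the correlation between same-numbered arrays described below, so it cannot give the error rate on these data. Tables were read with pandas 2.3.3 in Python 3.11.15.

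The genes, lists and tests were chosen with earlier results of these data known. All 10 genes are named in every comparison as far as measured. From each pathway list up to 4 genes of smallest p in uninjected OIR and any gene past the threshold are named. For 5 genes the 3 most correlated others are also named, with the exclusions given above. Alternatives were quantile normalization, median centring, other filters, a trend in eBayes, array weights, a replicate block, the mean of a gene's clusters, only the compared groups, and leaving out each array.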

Additional observations from a re-analysis of the deposited data

How the results depend on the processing

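Counts of called genes changed with several settings. Among the 9 genes, uninjected OIR against untreated day 17 gave 3 calls, 1 with array weights, 0 with only the groups compared and 0 to 3 when 1 array was left out. The 3 OIR groups averaged gave 1, against 0 with quantile normalization, array weights or only the groups compared, 2 with the replicate block, 3 with crossed numbers and 0 to 1 with an array left out. Day 17 against day 7 gave 3, against 1 with array weights, 0 with only the groups compared and 1 to 3 with an array left out, and Lifr missed the threshold with quantile normalization (adjusted p = 0.0582) and an eBayes trend (0.0570). ISOX DUAL against untreated gave 0, and 1 with crossed numbers.

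Among the 62 pathway genes, uninjected OIR gave 8, against 0 with array weights or only the groups compared and 0 to 8 with an array left out. The averaged groups gave 4, against 0 with array weights, 2 with only the groups compared and 0 to 4 with an array left out. PBS against untreated gave 0, against 1 with the replicate block and 2 with crossed numbers. ISOX DUAL against untreated gave 1, against 2 with an eBayes trend, 0 with array weights or only the groups compared, 4 with crossed numbers and 0 to 2 with an array left out. Day 17 against day 7 gave 5, against 3 with array weights, 8 with crossed numbers and 1 with only the groups compared. Fewer samples enter the fit with only the groups compared; the cause of the other shifts was not tested.

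The labels number the arrays 1 and 2 in every group but state no pairing. Deviations of same-numbered arrays correlated at 0.583 to 0.809 among the uninjected and untreated groups and at 0.399 between the injected groups, but at -0.406 to -0.057 across these sets. With the replicate block Osmr, Stat3 and Cebpd passed in uninjected OIR (adjusted p = 0.00675, 0.0150 and 0.0238). Crossing the numbers in the injected groups was chosen after seeing the data.

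Uncalled differences near 0 changed sign. Cebpb for PBS against uninjected OIR was 0.0014 with median centring, and Lif for ISOX DUAL against PBS was -0.0067 with quantile normalization. With an array left out, Cebpb spanned -0.019 to 0.17 (uninjected OIR against untreated), -0.011 to 0.18 (averaged groups), -0.086 to 0.073 (PBS against uninjected OIR), -0.041 to 0.10 (ISOX DUAL against uninjected OIR), -0.043 to 0.12 (ISOX DUAL against PBS) and -0.026 to 0.17 (PBS against untreated). Lif spanned -0.094 to 0.095 (ISOX DUAL against PBS), -0.074 to 0.16 (each injected group against untreated) and -0.14 to 0.12 (day 17 against day 7). Lifr spanned -0.16 to 0.027 (PBS against uninjected OIR), -0.029 to 0.10 (ISOX DUAL against uninjected OIR) and -0.022 to 0.16 (PBS against untreated). Socs3 spanned -0.33 to 0.069 (ISOX DUAL against uninjected OIR), -0.0042 to 0.082 (PBS against untreated) and -0.13 to 0.31 (day 17 against day 7). Cntfr spanned -0.078 to 0.017 (ISOX DUAL against PBS) and Stat3 -0.071 to 0.14 (day 17 against day 7). Low signal over background limits Lif, and Osmr and Cebpd at day 7.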
